A study of Mus musculus with 2 samples.

Results

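The 10 genes described here carry the TGF-beta signal from its ligand to its target genes in mouse tumour myeloid cells. They are the ligand Tgfb1, the ligand anchor Lrrc32, the receptors Tgfbr1 and Tgfbr2, the signal transducers Smad2, Smad3 and Smad4, the inhibitors Smad7 and Skil, and the induced gene Tgfbi. They were chosen by name, as the rows of the count table whose Ensembl identifier maps to these symbols, and all 10 were found among 49585 gene rows. All 10 had at least 50 reads over both libraries, and 9 had at least 1000.

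TGF-beta is made as an inactive dimer wrapped in its own propeptide, which proteins such as Lrrc32 (GARP) hold at the cell surface until integrins or thrombospondin release it. The free ligand binds the type II receptor kinase Tgfbr2, which activates the type I receptor Tgfbr1, and this phosphorylates Smad2 and Smad3. These enter the nucleus with Smad4 and act on target genes, among them the feedback inhibitors Smad7 and Skil. In tumours, TGF-beta is known as a brake on T cells and as a signal that shapes macrophages, and neuropilins have been described as co-receptors for it.

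Messenger RNA was sequenced from CD11b+ cells, which are mostly myeloid, isolated on magnetic beads from subcutaneous tumours that grew from mouse pancreatic cancer cell lines. The knockout library (labelled Test NRP2 KO) came from NRP2f/fCSF1R-iCRE mice on a BL6 background that received tamoxifen every day from the time tumours were palpable. The control library came from mice of the same strain and genotype, so both groups carried the floxed Nrp2 alleles and the inducible Cre recombinase. No tamoxifen is named for the control mice, so effects of the drug and of the deletion cannot be told apart. Csf1r regulatory sequence drives the recombinase, so deletion is directed at monocytes and macrophages and not at every CD11b+ cell. Tumours were harvested at 15 days, and RNA of 3 animals per group was pooled into 1 library. The sources used here give neither the age of the mice nor the names of the tumour lines.

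The knockout library held 68554172 counted reads and the control library 64153676. Each group has 1 pooled library, so differences carry no replicate check and no test was run. Genes seen in 1 library only had a median of 24 reads in the knockout library and 47 in the control library, and these values were taken as the reads that 1 captured fragment gives. The 95% intervals of ratios are exact Clopper-Pearson intervals on counts divided by these values, and they cover counting error only. The limit that a count of 0 allows, 3 fragments, is 72 reads in the knockout library and 141 in the control library. The targeted gene Nrp2 had 1017 reads in the knockout library and 9686 in the control library. The marker of the selection, Itgam (CD11b), had 28237 reads in the knockout library and 19301 in the control library. For 10 macrophage markers, the sum was 15021 CPM (counts scaled to a library of 1e+06) in the knockout library and 14482 in the control library. Single markers of this list went both ways, with ratios from 0.729 (Adgre1) to 3.57 (Mertk, 2.95 to 4.36). Their interval lay above 1 for 4 and below 1 for 5, beside 18.7% and 15.2% of all genes with at least 1000 reads.

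The ligand and both receptors stayed within 1.5-fold between the libraries, with the ligand and the type II receptor lower and the type I receptor higher in the knockout library. Of the SMADs, Smad4 was higher at a ratio of 1.55, while the intervals of Smad2, Smad3 and Smad7 included 1. Tgfbi was by far the most abundant of the 10 transcripts in both libraries, at nearly equal levels. The one gene past 2-fold, Lrrc32, was also the one with the fewest reads. Levels of different genes are compared as RPKM, the CPM of the normalised library per kilobase of merged exons.

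**Figure D1:**
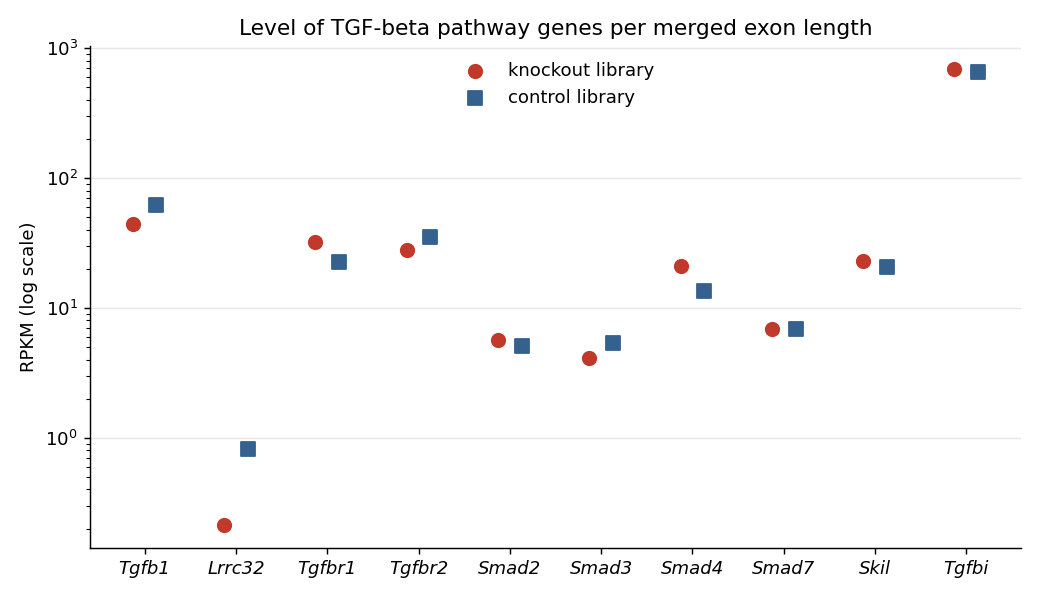
Level of each of the 10 genes in the knockout library (circles) and the control library (squares), 1 pooled library per group, as RPKM on a log scale. Tgfbi stands highest at 694 and 656 RPKM, Lrrc32 lowest at 0.213 and 0.812 RPKM, and the other genes lie between 4.11 and 62.1 RPKM.

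Tgfb1 encodes TGF-beta 1, the main TGF-beta ligand of immune cells (ENSMUSG00000002603, GRCm38 chromosome 7, 25687002 to 25705077, plus strand). It had 14970 reads in the knockout library and 20566 in the control library, or 223 and 313 CPM. The ratio of knockout over control was 0.713 (95% interval 0.630 to 0.808), a log2 ratio of -0.49. Among 9054 genes with at least 1000 reads, 14.5% had a ratio as low or lower. Tgfb1 was the dominant isoform gene in both libraries. Tgfb3, which encodes another TGF-beta, was at 5.38 RPKM in the knockout library and 4.53 RPKM in the control library, against 44.3 and 62.1 RPKM for Tgfb1. Tgfb2, the remaining isoform gene, had 0 reads in the knockout library and 32 in the control library, which is under the limit that a count of 0 allows.

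Tgfbr1 encodes the type I receptor ALK5 (ENSMUSG00000007613, chromosome 4, 47353222 to 47414931, plus strand). It had 13992 reads in the knockout library and 9665 in the control library, or 209 and 147 CPM. Its ratio was 1.42 (1.21 to 1.67), and 18.2% of genes with at least 1000 reads had a ratio as high or higher. Tgfbr2 encodes the type II receptor, the subunit that binds the ligand first (ENSMUSG00000032440, chromosome 9, 116084293 to 116175360, minus strand). It had 15367 reads in the knockout library and 18970 in the control library, or 229 and 289 CPM. The ratio of Tgfbr2 was 0.794 (0.700 to 0.902), so its interval lay below 1 while that of Tgfbr1 lay above 1. A ratio as low as that of Tgfbr2 or lower was found for 21.8% of genes with at least 1000 reads. Within a library, the level of Tgfbr2 over that of Tgfbr1 in RPKM was 0.877 in the knockout library and 1.57 in the control library. In CPM, Tgfbr2 stood above Tgfbr1 in both libraries, at 229 against 209 in the knockout library and 289 against 147 in the control library. Which subunit stood higher in the knockout library thus depends on the merged exon lengths used for RPKM.

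Sequences upstream of the start are shown for these 3 genes, the ligand and both receptors, whose intervals excluded 1. The 3 genes were picked with these ratios known, and a link between sequence and ratio was not tested. The sequences are the 250 bases before the RefSeq start on GRCm38.p6, written 5′ to 3′ on the strand of the gene. Capitals mark the GC box GGGCGG, an element bound by Sp1-type factors, and the SMAD box CAGAC, each on either strand.
Tgfb1, chr7:25686752-25687001, plus strand: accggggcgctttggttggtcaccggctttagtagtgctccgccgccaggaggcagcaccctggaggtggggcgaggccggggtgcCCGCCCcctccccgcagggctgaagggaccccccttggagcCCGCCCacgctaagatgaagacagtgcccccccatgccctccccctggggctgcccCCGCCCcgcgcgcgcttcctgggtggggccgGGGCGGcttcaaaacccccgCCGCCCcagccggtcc
Tgfbr1, chr4:47352972-47353221, plus strand: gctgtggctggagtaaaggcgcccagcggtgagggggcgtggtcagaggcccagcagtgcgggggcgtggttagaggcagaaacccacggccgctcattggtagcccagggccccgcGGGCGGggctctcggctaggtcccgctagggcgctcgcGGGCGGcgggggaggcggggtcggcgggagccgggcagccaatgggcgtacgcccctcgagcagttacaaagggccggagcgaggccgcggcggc
Tgfbr2, chr9:116175364-116175613, minus strand: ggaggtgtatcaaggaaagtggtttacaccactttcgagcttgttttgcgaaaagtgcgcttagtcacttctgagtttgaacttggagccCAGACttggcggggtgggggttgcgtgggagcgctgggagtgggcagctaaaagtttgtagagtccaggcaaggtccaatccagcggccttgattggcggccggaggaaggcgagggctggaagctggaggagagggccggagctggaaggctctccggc
The Tgfb1 window held 5 GC boxes and was 75.2% G and C, and the Tgfbr1 window held 2 and was 74.8% G and C. Tgfbr2 had no GC box, 1 SMAD box that starts 160 bases before the start, and 58.4% G and C. Of 32851 windows of this length in the RefSeq table, 32.7% held a GC box and 42.2% a SMAD box. Windows were matched for 5 of the 10 genes. Of the other matched genes, Smad3 had 2 GC boxes and no SMAD box, and Tgfbi had 1 GC box and 2 SMAD boxes. The AP-1 letters TGANTCA, present in 6.75% of all windows, were in 0 of these 5. Such matches describe letters and not binding.

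Lrrc32 encodes GARP, a surface anchor of latent TGF-beta that is known from regulatory T cells, platelets and endothelium (ENSMUSG00000090958, chromosome 7, 98489283 to 98502181, plus strand). It had 67 reads in the knockout library and 250 in the control library, or 1.0 and 3.81 CPM. These reads correspond to 2.79 fragments in the knockout library and 5.32 in the control library. The ratio was 0.263, with an interval of 0.0385 to 1.34 that includes 1, so a difference was not detectable at this depth. On undivided reads the interval was 0.198 to 0.345. The related anchor of myeloid cells, Nrros (LRRC33), was far more abundant, at 44.0 RPKM in the knockout library and 75.6 RPKM in the control library, against 0.213 and 0.812 RPKM for Lrrc32. Nrros itself was 1.72-fold lower in the knockout library (1.51 to 1.95).

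Among cell types known for Lrrc32, the summed markers of regulatory T cells and endothelium were lower in the knockout library, while single platelet markers went both ways. Of all 14420 genes with at least 50 reads, 14.7% were lower and 10.8% higher by 2-fold or more, and 11.1% had an interval below 1. In bulk RNA, fewer cells of a type and less RNA per cell cannot be told apart. Of 7 regulatory T cell markers, all detected in both libraries, 3 lay 2-fold or more below the control library and 0 above it, but the interval lay below 1 for only 2. They summed to 33.1 CPM in the knockout library and 73.6 CPM in the control library. Foxp3, the factor that defines these cells, had 67 reads in the knockout library and 304 in the control library, and its interval of 0.033 to 1.01 included 1. Of 8 endothelial markers, all detected in both, 6 lay 2-fold or more below the control library and 0 above it, with 4 intervals below 1 and sums of 34.9 CPM in the knockout library and 96.5 CPM in the control library. Platelet markers summed to 318 CPM in the knockout library and 367 CPM in the control library, of which Pf4, also made by macrophages, gave 299.9 and 337 CPM. The platelet glycoprotein genes Gp9, Gp1ba and Gp1bb were at 0 in both. Of the 4 platelet markers with at least 50 reads, 1 was 2-fold or more lower and 0 higher, and the interval lay below 1 for 2. Their log2 ratios ran from -1.45 to 0.88. Of the 9 fibroblast markers, all detected in both libraries, 3 were lower and 1 higher by 2-fold or more, 4 had an interval below 1, and they summed to 205 CPM in the knockout library and 357 CPM in the control library. T cell, dendritic cell and B cell markers were also lower, at 67.0, 136 and 4.87 CPM in the knockout library and 205, 409 and 24.2 CPM in the control library. Past 2-fold lower were 10 of 11 T cell, 6 of 8 dendritic cell and 4 of 5 B cell markers, and the interval lay below 1 for 10 of the T cell, 5 of the dendritic cell and 1 of the B cell markers. Xcr1 and Pax5 were at 0 in the knockout library, with intervals that included 1. Epithelial tumour cell markers were lower too, at 121 CPM in the knockout library and 188 CPM in the control library, with 3 of 6 past 2-fold and 3 intervals below 1. Neutrophil markers summed to 1250.3 CPM in the knockout library and 1008 CPM in the control library. The ratio of these sums was 1.24 (1.17 to 1.32), with S100a8 at 1.92 (1.67 to 2.22). Only 1 of 6, Ly6g, was 2-fold or more higher, with 96 reads in the knockout library and 0 in the control library. Those 96 reads lay under the limit of the control library, and the interval of Ly6g included 1. Of the 6 markers, the interval lay above 1 for 2 and below 1 for 1. The part of all these cells in the values of Lrrc32 and of the other genes was not tested.

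**Figure D2:**
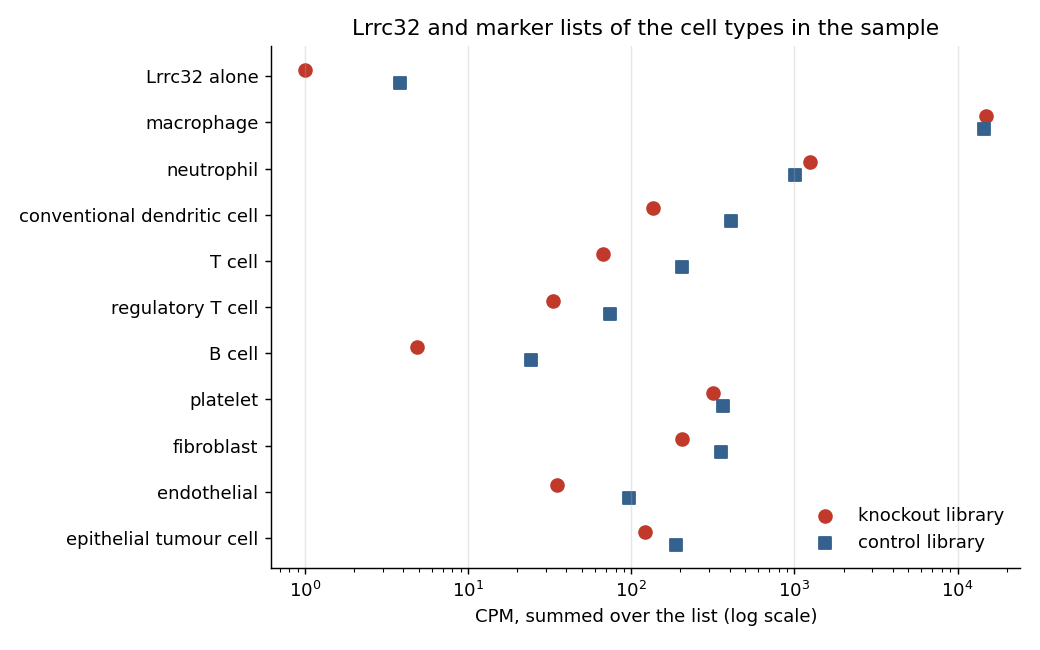
CPM of Lrrc32 and the summed CPM of marker lists for cell types that the sample can hold, in the knockout library (circles) and the control library (squares), on a log scale. Lrrc32 (1.0 and 3.81 CPM) lies below the regulatory T cell list (33.1 and 73.6 CPM) and the endothelial list (34.9 and 96.5 CPM), and macrophage markers stand at 15021 and 14482 CPM.

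Of the 3 transducing SMADs, only Smad4 had an interval that excluded 1. Smad4, the partner shared by TGF-beta and BMP signals (ENSMUSG00000024515, chromosome 18, 73639009 to 73703780, minus strand), had 5217 reads in the knockout library and 3291 in the control library, or 77.9 and 50.1 CPM. Its ratio was 1.55 (1.18 to 2.06), and 12.7% of genes with at least 1000 reads had a ratio as high or higher. Smad2 (ENSMUSG00000024563, chromosome 18, 76241580 to 76310963, plus strand) had 3325 reads in the knockout library and 2928 in the control library, a ratio of 1.11 (0.820 to 1.53). Smad3 (ENSMUSG00000032402, chromosome 9, 63646767 to 63757994, minus strand) had 1525 reads in the knockout library and 1936 in the control library, a ratio of 0.772 (0.514 to 1.17). The intervals of Smad2 and Smad3 included 1, so neither difference was detectable at this depth. Per length, Smad4 was the most abundant of the 3 in both libraries, at 20.98 RPKM in the knockout library and 13.5 RPKM in the control library. Smad2 was at 5.65 RPKM in the knockout library and 5.08 RPKM in the control library, and Smad3 at 4.11 and 5.32 RPKM. The level of Smad4 over that of Smad3 was 5.11 in the knockout library and 2.54 in the control library.

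Smad7, the inhibitory SMAD that blocks the type I receptor (ENSMUSG00000025880, chromosome 18, 75367529 to 75395935, plus strand), had 2084 reads in the knockout library and 2039 in the control library. This is 31.1 CPM in each library, a ratio of 1.0 (0.688 to 1.48) whose direction turned under other scalings. Smad2, Smad4 and Smad7 lie within 2.67 Mb of chromosome 18 and had ratios of 1.11, 1.55 and 1.0. Skil encodes SnoN, a co-repressor that binds the SMAD complex and is itself a TGF-beta target (ENSMUSG00000027660, chromosome 3, 31095058 to 31122577, plus strand). It had 14784 reads in the knockout library and 13244 in the control library, or 221 and 202 CPM, and a ratio of 1.09 (0.949 to 1.26). Neither feedback inhibitor differed beyond counting error, and these intervals leave room for differences of up to 1.48-fold for Smad7 and 1.26-fold for Skil. Per length, Skil at 22.8 RPKM in the knockout library and 20.8 RPKM in the control library stood above Smad7 at 6.88 and 6.87 RPKM.

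Tgfbi encodes a secreted matrix protein that TGF-beta induces and that macrophages make in quantity (ENSMUSG00000035493, chromosome 13, 56609523 to 56639562, plus strand). It had 175196 reads in the knockout library and 162384 in the control library, or 2615 and 2473 CPM. In the knockout library it gave 71.1% of the reads of the 10 genes, and in the control library 69.0%. At 694 RPKM in the knockout library and 656 RPKM in the control library, Tgfbi stood above 99.4% of the genes with at least 50 reads in each. The ratio of 1.06 (1.02 to 1.10) was the one closest to 1 among the 5 whose interval excluded 1, and its interval included 1 under upper-quartile scaling (0.976 to 1.06) and under total-count scaling (0.969 to 1.05). Of the genes with at least 1000 reads, 86.4% had a ratio farther from 1.

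**Figure D3:**
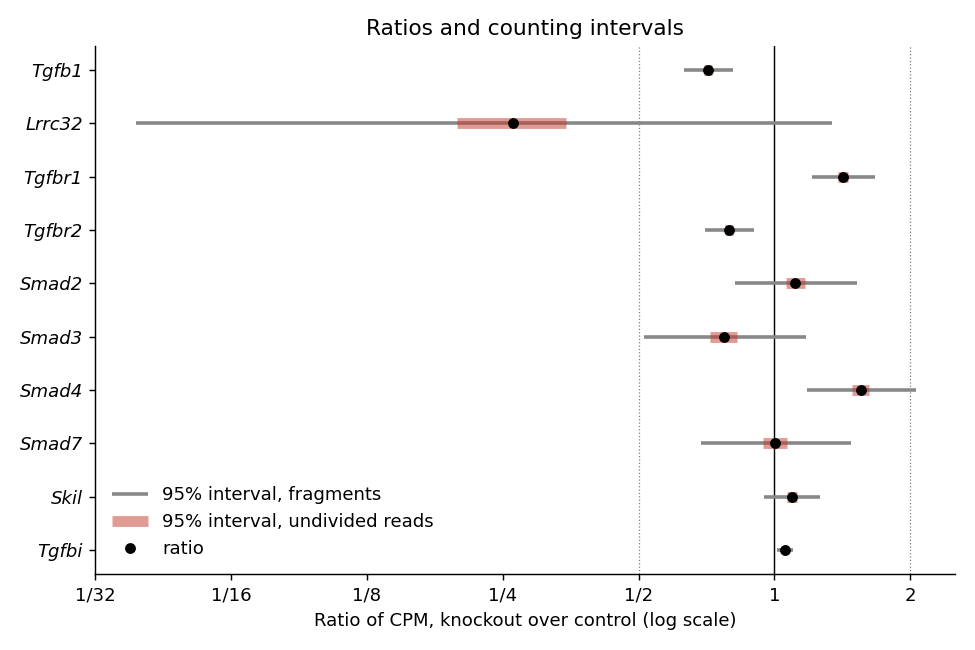
Ratio of CPM, knockout over control, for each gene on a log scale (points), with 95% counting intervals on fragments (grey lines) and on undivided reads (red bands); dotted lines mark 2-fold. The grey lines of Tgfbr1, Smad4 and Tgfbi lie above 1, those of Tgfb1 and Tgfbr2 below 1, and that of Lrrc32 runs from 0.0385 to 1.34.

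The 10 genes were then set beside all genes, by size and by interval. By the rule of 2-fold, 1 of 10 lay that far or farther below the control library, against 14.7% of the 14420 genes with at least 50 reads. None lay that far above it (0 of 10), against 10.8% of those genes. The interval lay above 1 for 3 of 10 genes (Tgfbr1, Smad4 and Tgfbi) against 12.6% of genes with at least 50 reads, and below 1 for 2 of 10 (Tgfb1 and Tgfbr2) against 11.1%. Among genes with at least 1000 reads, which have narrower intervals, the shares with an interval above and below 1 were 18.7% and 15.2%, beside 3 and 2 of the 9 such members. None of these 9 passed 2-fold (0 of 9), where 4.5% of genes at that depth were higher and 4.02% lower by that much. The median absolute log2 ratio of these 9 was 0.333, beside 0.328 over all 9054 genes at that depth. The signed median over the 10 genes was 0.04, beside -0.01 over all genes with at least 50 reads. In the authors' deposited table, the log2 fold changes of the 10 genes run from -1.91 for Lrrc32 to 0.65 for Smad4. The same deposited table gives standard errors of 0.38 for Tgfbi to 1.68 for Lrrc32, and a lowest p-value among the 10 of 0.217, for Smad4. The sources used here do not say how those errors were obtained from 1 library per group.

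**Figure D4:**
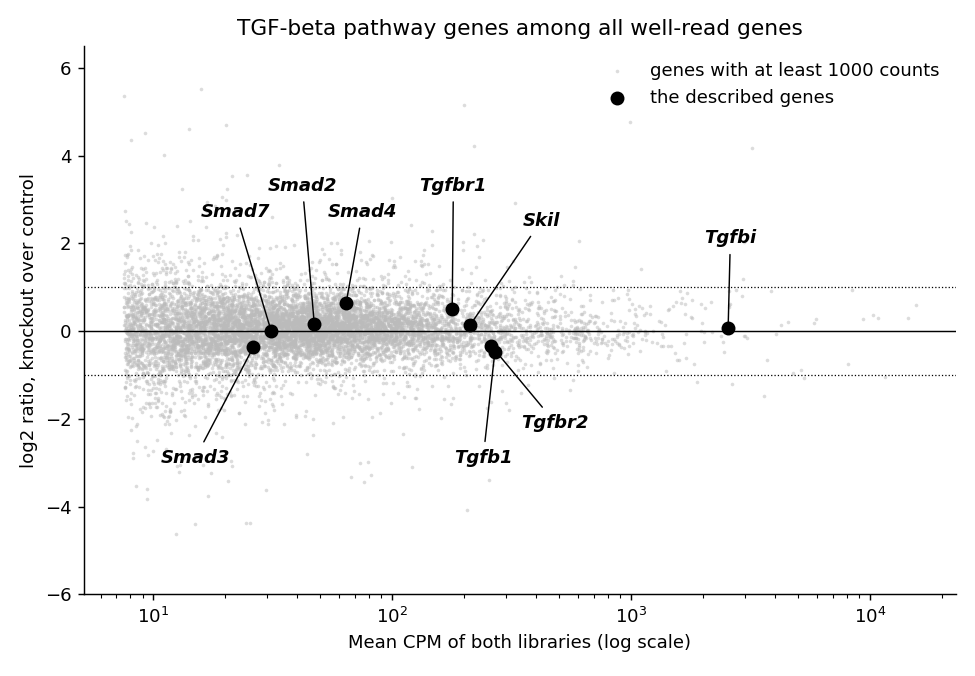
Log2 ratio, knockout over control, against the mean CPM of both libraries for 9054 genes with at least 1000 reads (grey) and the 9 described genes among them (black); dotted lines mark 2-fold. The 9 genes lie between -0.49 (Tgfb1) and 0.64 (Smad4), inside the cloud of all genes.

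Other genes of the pathway were read from lists of TGF-beta biology that were written with earlier results of these data known. The same 14.7% lower and 10.8% higher, over genes with at least 50 reads, are the background. Around the ligand, 2 of 8 measured ligand and latency genes were 2-fold or more lower (Lrrc32, and Ltbp2 with 31 reads in the knockout library and 155 in the control library) and 0 higher. The interval of Ltbp2, 0.00755 to 1.95, included 1, as did that of Lrrc32, so neither difference was detectable at this depth. Ltbp3, which encodes a binding protein of the latent complex, was at a ratio of 1.09 (0.822 to 1.45), and Tgfb3 at 1.19 (0.704 to 2.07). The activators went both ways, by more than any of the 9 well-read genes described. Thbs1, which encodes thrombospondin 1, a matricellular protein that releases the ligand from its propeptide, had 318809 reads in the knockout library and 76242 in the control library. Its ratio was 4.10 (3.89 to 4.32). Furin, the protease that cuts the TGF-beta precursor, was at 626 CPM in the knockout library and 329 CPM in the control library, a ratio of 1.90 (1.72 to 2.11). Mmp9, a gelatinase that can free latent ligand, was 3.05-fold lower in the knockout library (2.66 to 3.49), and Itgb3, the beta chain of an integrin that binds latent TGF-beta, 3.75-fold lower (1.98 to 7.40). In this list 2 of 10 measured genes were 2-fold or more higher and 2 lower. Of the higher ones, Itgb8 had only 64 reads in the knockout library and 3 in the control library, and its interval included 1.

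Among 13 measured receptors and co-receptors of the TGF-beta family, 1 was past 2-fold lower, the targeted gene Nrp2, and 1 past 2-fold higher. The higher one was the BMP receptor gene Bmpr1a, with 507 reads in the knockout library and 248 in the control library and an interval of 0.75 to 6.56. Acvrl1, which encodes the type I receptor ALK1, was 1.73-fold lower (1.36 to 2.20), and Acvr1, another type I receptor gene, was at a ratio of 0.618 (0.375 to 1.03). Of 7 measured SMADs none passed 2-fold in either direction. The BMP-responsive Smad1 was at 26.4 CPM in the knockout library and 16.1 CPM in the control library, a ratio of 1.63 (1.01 to 2.75), and Smad5, of the same group, was at 1.42 (0.911 to 2.28). SMAD anchors and nuclear partners also stayed within 2-fold, with 0 of 9 past it. Runx3, a transcription factor that works with SMADs, was 1.43-fold lower (1.14 to 1.78), and the co-activator gene Crebbp was at a ratio of 1.45 (1.04 to 2.05). The intervals of Zfyve9, which encodes the receptor-bound SMAD anchor SARA, and of the ubiquitin ligase gene Trim33 included 1.

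Inhibitors of the pathway were within 2-fold for 14 of 15 genes, and the exception was Tgif2 with 167 reads in the knockout library and 400 in the control library. The interval of Tgif2, 0.128 to 1.26, included 1. Tgif1, which encodes a SMAD co-repressor, was at a ratio of 1.45 (1.26 to 1.69), and the SMAD phosphatase gene Ppm1a at 1.35 (1.07 to 1.72). Pmepa1, a TGF-beta target that sequesters SMADs, was 1.38-fold lower (1.05 to 1.82), and the interval of the ubiquitin ligase gene Nedd4l included 1.

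Of 24 TGF-beta-induced genes, 3 were higher and 4 lower by 2-fold or more, beside 10.8% and 14.7% of genes with at least 50 reads. Of the 20 with at least 1000 reads, 3 were higher and 2 lower, beside 4.5% and 4.02% of genes at that depth. Tgfbi, Smad7 and Skil, on this list, were near 1. The higher ones were Thbs1, the fibronectin gene Fn1 and the helix-loop-helix gene Id1. Fn1 was at 4063 CPM in the knockout library and 1788 CPM in the control library, a ratio of 2.27 (2.18 to 2.37), and Id1 was at 2.20 (1.15 to 4.58). Ccn2, a matricellular growth factor gene, was 2.44-fold lower (1.07 to 5.66). Itgae, the CD103 integrin chain of dendritic and T cells, was 2.15-fold lower (1.34 to 3.46), and the smooth muscle actin gene Acta2 was at a ratio of 0.433 (0.188 to 0.983). The cell cycle inhibitor gene Cdkn2b had 41 reads in the knockout library and 177 in the control library, with an interval of 0.0158 to 1.78 that included 1. Fibroblast markers were at 205 CPM in the knockout library and 357 CPM in the control library, and the collagen gene Col1a1, on both lists, was 1.83-fold lower (1.42 to 2.35).

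Genes that depend on TGF-beta in microglia and tissue macrophages included folds wider than those of any of the 10 genes described. Of 10 measured, 4 were lower and 0 higher by 2-fold or more, beside 14.7% and 10.8% of genes with at least 50 reads. Of the 9 with at least 1000 reads, 4 were lower and 0 higher, beside 4.02% and 4.5% of genes at that depth. The interval lay below 1 for 4 of the 10 and above 1 for 2, beside 11.1% and 12.6% of genes with at least 50 reads. Fcrls, an Fc receptor-like gene, had 1545 reads in the knockout library and 25467 in the control library, and Cx3cr1, the fractalkine receptor gene, 1684 and 14159. Gpr34, a lysophospholipid receptor gene, was 2.37-fold lower (1.62 to 3.47), and Olfml3 was 2.22-fold lower (1.46 to 3.38). The median log2 ratio of the 9 well-read genes was -0.18, since others of the list went the other way. P2ry12, a purine receptor gene of the same microglial set that was singled out after its values were seen, was at a ratio of 1.89 (1.42 to 2.53), and Tgfbr1 belongs to this list too. Of the other ligands of the family, Gdf15, a stress-induced cytokine gene, was at 140 CPM in the knockout library and 97.3 CPM in the control library, a ratio of 1.44 (1.18 to 1.76). Bmp2 was 3.15-fold lower (1.39 to 7.45), and Inhba, the activin A subunit gene, was at 1.26 (0.898 to 1.80). In that list 1 of 8 measured genes was 2-fold or more lower and 1 higher, the antagonist gene Fst, whose 87 reads in the knockout library against 0 lay under the limit of the control library.

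**Figure D5:**
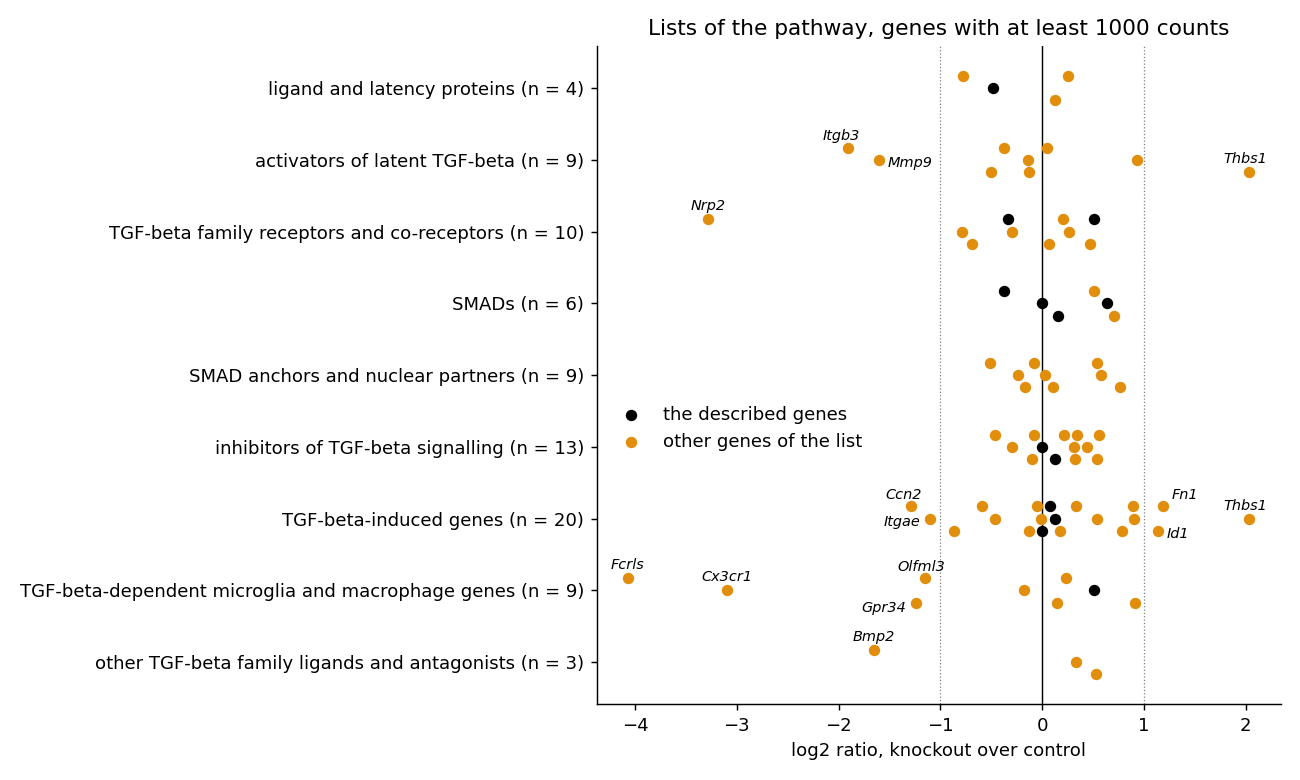
Log2 ratio, knockout over control, of genes with at least 1000 reads in 9 lists of the pathway, with the described genes in black and the other genes of each list in orange; dotted lines mark 2-fold and names are given past it. Thbs1 reaches 2.04 and Fcrls -4.07, and the described genes lie between -0.49 and 0.64.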

How the data were processed

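RNA was sequenced from 1 pooled library per group, and groups were taken from the sample titles. The submitters' processing notes name cutadapt, HISAT2, featureCounts and GRCm38, without versions or options. The authors deposited whole-number counts of read 1 per Ensembl gene, with no normalisation. The authors' deposited table holds a signal per library (counts divided by a constant, 1.01 for the knockout and 0.995 for the control library), log2 fold changes and their errors, a score and p-values, by a tool the sources used here do not name. No source says whether reads were counted by strand, and exons of the 10 genes overlap no exon of another gene in GENCODE M21 (GRCm38), which gave symbols for 49326 of 49585 identifiers, coordinates and exon lengths.

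TMM factors (edgeR 4.0.16, R 4.3.3) were 0.977 for the knockout and 1.02 for the control library. Log2 ratios used a prior of 0.5 counts, and shares over all genes used a minimum of 50 counts. Reads per fragment were medians over genes with more than 4 reads in 1 library and 0 in the other (2114 genes for the knockout and 867 for the control library). The calculation was tested on simulated data made with these same reads per fragment, so that test could not check whether they hold for the real libraries. Named genes are the 10 genes and, per list, up to 4 with at least 1000 counts and the largest absolute log2 ratio; others are named to account for a count. The members and lists were chosen with earlier results of these data known. Alternatives were DESeq2 1.42.0 size factors, upper-quartile, total-count and restricted TMM scaling, a prior of 5, other count minimums and the interval on undivided reads. Some genes are not reported here.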

Additional observations from a re-analysis of the deposited data

How the results depend on the processing

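The log2 ratios of Tgfb1 (-0.55 to -0.47), Tgfbr2 (-0.40 to -0.32), Tgfbr1 (0.44 to 0.52), Smad4 (0.57 to 0.65), Smad3 (-0.44 to -0.36), Smad2 (0.09 to 0.17), Skil (0.06 to 0.14), Tgfbi (0.01 to 0.09) and Lrrc32 (-1.99 to -1.85) kept their direction under every alternative run, including the authors' deposited values. Smad7 turned, at -0.06 to 0.02. Each scaling moves all genes alike and the count minimums leave these ratios as they are, so only a ratio close to 1 could turn. Scaling by total count shifted the median of all genes by -0.07 and gave Tgfbi 0.014. On undivided reads the interval lay above 1 for 5 and below 1 for 4 of the 10 genes, against 3 and 2 on fragments. With at least 1000 counts, which leaves fewer genes, 0 of the 10 genes were 2-fold lower, since Lrrc32 drops out and has no value there. At that minimum the number lower was 0 for ligand and latency genes, 0 for inhibitors and 2 for induced genes, and the number higher 1 for activators, 0 for receptors and 0 for other ligands. The number of receptors at least 2-fold higher was also 0 under upper-quartile scaling, total count and a prior of 5, because Bmpr1a lies at the limit. With no minimum, 1 SMAD partner and 5 other ligands were higher, all genes of few reads. Each value under an alternative was set against its main value, and 332 of these values stayed while 15 moved. Part of the 332 could not move, because the count minimums leave single ratios as they are. A count stayed if it was within 1.5 times, and a log2 ratio if it was within its interval. A median stayed if its shift was within a tolerance set by the widths of its members' intervals. Leaving out a replicate could not be done with 1 library per group. No paired analysis was possible because each group has 1 library. Depth limits Lrrc32 most, at 2.79 fragments in the knockout library and 5.32 in the control library.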
